A study of Mus musculus with 23 samples.

Results

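A set of genes of the neutrophil granules and cytosol differed between adult mouse brains whose mothers had received the same low-protein diet, by up to 15.8-fold for S100a9. The brains of the control diet lay closer together for 8 of the 9 genes, and Elane, the exception, varied little within any diet. The 9 genes were S100a8, S100a9, Mpo, Elane, Ltf, Camp, Ngp, Lcn2 and Chi3l3 (current symbol Chil3). They were all the probes that carried these gene names on a one-colour Agilent array, 11 probes of 39429, each spotted once. The members were chosen by their measured spread and covariation between brains of the same diet, so both are given below as a description, without a test.

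The arrays measured whole-brain RNA of 12 adult male C57BL/6J mice, 4 for each of 3 maternal diets. Embryos from C57BL/6J parents on a normal diet were made by in vitro fertilization and carried by ICR recipient mothers on a control diet (CD), a diet low in protein (PR) or the same low-protein diet with extra folic acid (FA). Pups were delivered by caesarean section, nursed by ICR foster mothers and weaned to CD. After behavioural tests the adult mice were killed by cervical dislocation, and the brains were rinsed with PBS and frozen. The study describes no perfusion, so RNA of blood left in the vessels cannot be told apart from that of brain tissue. The study's text gives the foster mothers' diet in 2 ways, as CD for all and as CD, PR or FA, and the labels give no litters. All 4 arrays of a diet lay on 1 slide of their own, so slide and diet cannot be told apart, whereas every deviation from a diet mean given below is also a deviation within 1 slide. Between 27068 and 28458 spots were well above background on the CD arrays, 31266 to 33478 on the PR arrays and 30408 to 31672 on the FA arrays. Brains from 1 diet correlated at r of 0.994 to 0.997 over the 23753 probes well above background on all 12 arrays. All 9 neuron and glia markers with a probe, among them Snap25 and Gfap, were well above background on 12 of 12 arrays.

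Neutrophils are short-lived granulocytes that are made in bone marrow and circulate in blood, and few of them enter healthy brain tissue. Their granules are filled in sequence during maturation. Genes of the primary granules, such as Mpo and Elane, are transcribed in promyelocytes, genes of the secondary granules, such as Ltf, Camp and Ngp, in the myelocytes that follow, and S100a8 and S100a9 into the mature cell. The transcription factor PU.1 is known to act on the early genes, and members of the C/EBP family act across the sequence. In whole-brain RNA, fewer cells of a type and less RNA per cell cannot be told apart.

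The sequences before the start sites are shown for the calprotectin pair, which carried a large spread, and for the pair of primary granule genes, which behaved differently from each other. They are the 250 bases before the RefSeq start in GRCm38.p6, 5′ to 3′ on the strand of the gene, and capitals mark matches on either strand to GAGGAAGT (a PU.1 motif), TTGCNNAA (a C/EBP motif) and TATAAA (the TATA box). S100a8 lies at chr3:90668821-90669070 on the plus strand, S100a9 at chr3:90695722-90695971 on the minus strand, Mpo at chr11:87793534-87793783 on the plus strand and Elane at chr10:79886062-79886311 on the plus strand.
S100a8: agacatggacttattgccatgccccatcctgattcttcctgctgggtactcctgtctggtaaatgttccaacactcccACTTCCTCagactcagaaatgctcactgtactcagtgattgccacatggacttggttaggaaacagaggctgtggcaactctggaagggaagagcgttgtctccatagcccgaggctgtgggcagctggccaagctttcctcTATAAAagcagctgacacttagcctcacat
S100a9: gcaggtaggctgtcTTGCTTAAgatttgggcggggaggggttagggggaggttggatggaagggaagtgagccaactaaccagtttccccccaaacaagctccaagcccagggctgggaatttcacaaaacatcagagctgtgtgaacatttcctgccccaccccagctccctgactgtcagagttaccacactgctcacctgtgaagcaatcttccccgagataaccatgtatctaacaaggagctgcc
Mpo: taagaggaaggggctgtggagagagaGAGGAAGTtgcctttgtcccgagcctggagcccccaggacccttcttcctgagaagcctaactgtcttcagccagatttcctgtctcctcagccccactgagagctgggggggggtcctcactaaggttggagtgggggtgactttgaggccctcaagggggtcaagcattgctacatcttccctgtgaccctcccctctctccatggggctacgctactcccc
Elane: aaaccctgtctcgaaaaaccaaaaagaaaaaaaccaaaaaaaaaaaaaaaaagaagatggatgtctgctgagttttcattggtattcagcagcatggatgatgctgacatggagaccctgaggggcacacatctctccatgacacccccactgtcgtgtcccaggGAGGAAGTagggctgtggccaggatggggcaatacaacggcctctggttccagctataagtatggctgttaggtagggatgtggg

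GAGGAAGT was found in 3 of the 9 promoters, those of S100a8, Mpo and Elane, against 2.44% of all 32851 promoters of that length in the table. TTGCNNAA was found in 4 of 9, those of S100a9, Ltf, Ngp and Lcn2, against 9.56% of all. TATAAA was found only in that of S100a8 among the 9, where it began 30 bases before the start, against 12.4% of all. The windows of Camp and Chi3l3 held none of these letters. Mpo and Elane thus shared the PU.1 motif and not the pattern across brains that is described next. No 2 of these motifs overlapped at a match.

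S100a8 and S100a9 encode calcium-binding proteins that pair to form calprotectin, an abundant protein of the neutrophil cytosol. Their probes lie near each other on chromosome 3, at 90473778 to 90473837 and 90496573 to 90496632 (mm9). Log2 intensity of S100a9 was 9.01, 8.94, 8.91 and 8.93 on CD 1 to CD 4. On PR 1 to PR 4 it was 9.36, 11.94, 8.99 and 7.96, and on FA 1 to FA 4 it was 11.40, 8.16, 10.99 and 9.84. The 4 CD brains lay within 1.07-fold of each other, while the highest brain exceeded the lowest 15.8-fold within PR and 9.46-fold within FA.

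The CD brains sat in the middle of that range, with PR 2, FA 1 and FA 3 far above them and PR 4 and FA 2 below. S100a8 gave the same picture, with 6.97, 6.88, 7.10 and 7.19 on the CD arrays, 7.01, 9.94, 7.01 and 6.11 on the PR arrays, and 9.29, 6.14, 8.72 and 7.84 on the FA arrays. The span was 14.3-fold within PR and 8.86-fold within FA, against 1.23-fold within CD. Deviations from the diet mean of the 2 genes correlated at r = 0.99 over 12 arrays, as a description of arrays that share 3 slides and 1 normalization.

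**Figure D1:**
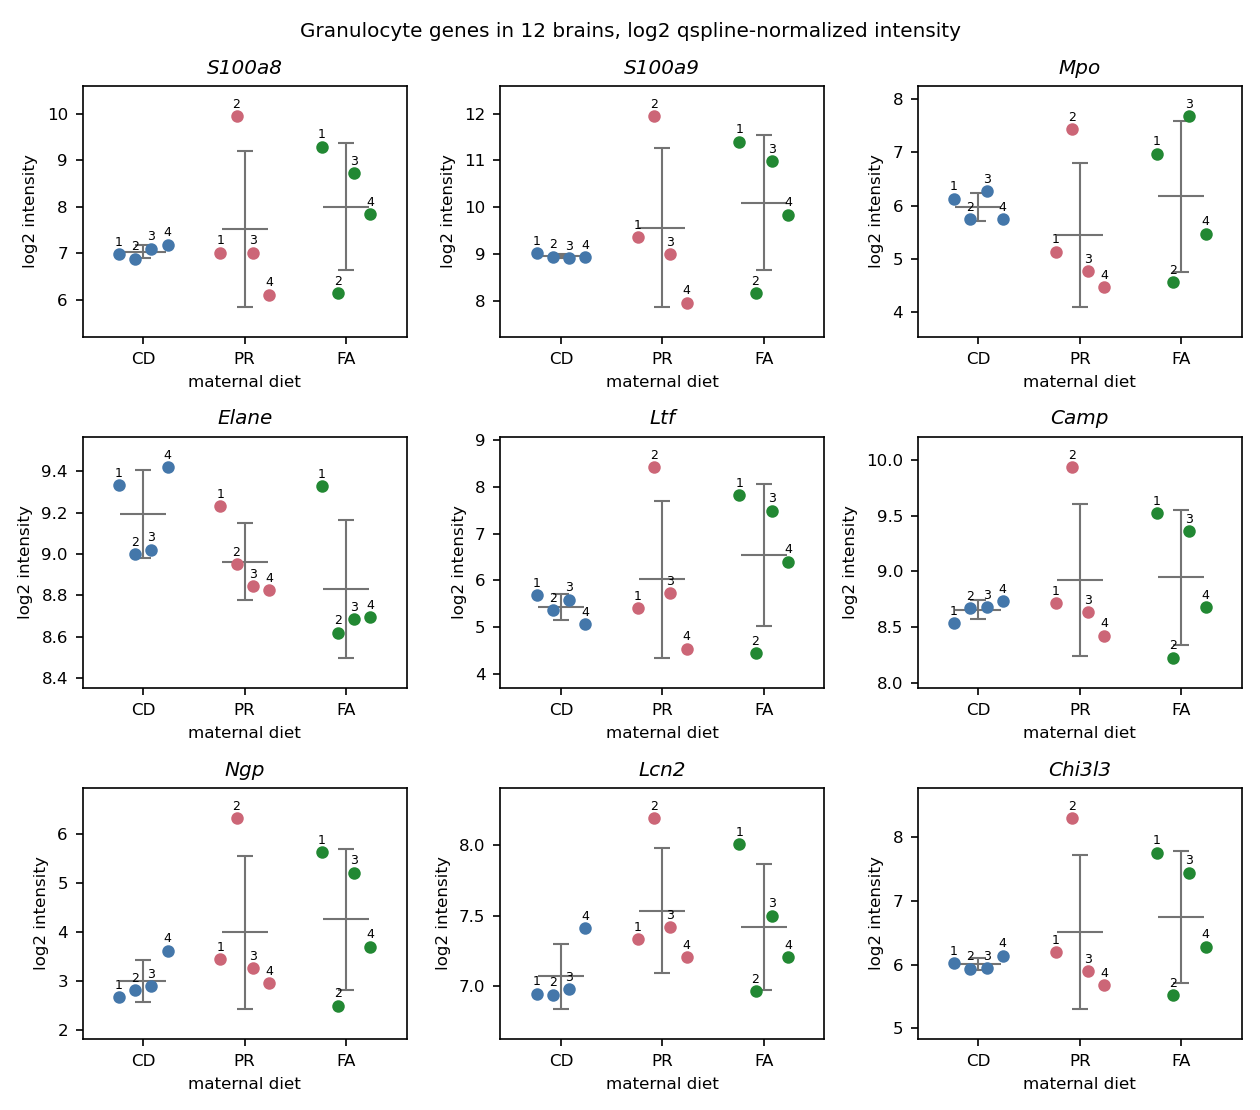
Log2 normalized intensity (y axis) of the brightest probe of each of the 9 genes on the 12 arrays by maternal diet (x axis). Points are brains, numbered by replicate, and grey bars give the mean and SD of 4. PR 2 is the highest PR brain for 8 genes, and Elane, in the middle row, has another order.

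Mpo encodes myeloperoxidase, the heme enzyme of primary granules that makes hypochlorous acid. Its brighter probe, at chromosome 11, 87617840 to 87617899 (mm9), read 6.13, 5.74, 6.27 and 5.75 on the CD arrays, 5.13, 7.44, 4.77 and 4.47 on the PR arrays, and 6.98, 4.56, 7.67 and 5.48 on the FA arrays. PR 2, FA 1 and FA 3 stood above every CD brain, and the other 5 PR and FA brains lay below every CD brain. FA 3 was higher than FA 1 for Mpo, the only gene of the 9 for which FA 1 was not the highest FA brain. A second Mpo probe, 87615121 to 87615180, was well above background on 1 of 12 arrays and did not track the first (r = 0.24).

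Elane encodes neutrophil elastase, a serine protease of the same granules. Its probe, at chromosome 10, 79350902 to 79350961, read 9.33, 9.0, 9.02 and 9.42 on the CD arrays, 9.23, 8.95, 8.84 and 8.83 on the PR arrays, and 9.33, 8.62, 8.69 and 8.69 on the FA arrays. Well above background on all 12 arrays, it varied 1.32-fold within PR and 1.64-fold within FA. PR 2, the highest PR brain for the other 8 genes, was not high for Elane, whose highest PR brain was PR 1. The correlation of Elane with the other 8 genes ranged from 0.27, with Mpo, to 0.57, with Lcn2.

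The secondary granule genes followed calprotectin. Ltf encodes lactoferrin, which binds iron. Its probe, at chromosome 9, 110942873 to 110942932, read 5.68, 5.37, 5.59 and 5.07 on the CD arrays, 5.41, 8.41, 5.72 and 4.54 on the PR arrays and 7.82, 4.45, 7.49 and 6.40 on the FA arrays. It was well above background on 1 CD, 4 PR and 3 FA arrays, and spanned 14.6-fold within PR.

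Camp encodes the precursor of the antimicrobial peptide cathelicidin. Its 2 probes overlap at chromosome 9, 109749911 to 109749970 and 109749901 to 109749950, and their deviations correlated at r = 0.99. The brighter read 8.54, 8.67, 8.68 and 8.74 on the CD arrays, 8.71, 9.93, 8.64 and 8.42 on the PR arrays and 9.52, 8.23, 9.36 and 8.68 on the FA arrays. Camp put the same PR and FA brains highest and lowest as Ltf over a smaller range, 2.85-fold within PR and 2.46-fold within FA, and the second probe spanned 2.04-fold and 1.95-fold.

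Ngp encodes neutrophilic granule protein, a relative of the cathelicidins. Its probe, whose target spans 110324266 to 110324814 on chromosome 9, was not well above background on any CD array (2.68, 2.82, 2.90 and 3.63). It was well above background on PR 2, at 6.33, FA 1, at 5.64, and FA 3, at 5.22, and on no other array. The remaining values were 3.46, 3.27 and 2.97 on PR 1, PR 3 and PR 4, and 2.50 and 3.71 on FA 2 and FA 4. No fold change is given for Ngp against CD, since the detection limit on the CD arrays, 4.75 to 5.28, was above the means of the PR and FA brains.

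Lcn2 encodes lipocalin-2, which binds bacterial siderophores and is also made by astrocytes and vessels in inflamed brain. Its probe, at chromosome 2, 32240199 to 32240258, read 6.95, 6.94, 6.98 and 7.41 on the CD arrays, 7.34, 8.19, 7.42 and 7.20 on the PR arrays and 8.0, 6.97, 7.50 and 7.21 on the FA arrays. The span within a diet reached 1.97-fold in PR and 2.05-fold in FA, and CD 4 stood above the other CD brains. Chi3l3 encodes Ym1, a chitinase-like lectin of neutrophil precursors and of some macrophages, and its probe lies at chromosome 3, 105950485 to 105950544. It read 6.02, 5.94, 5.94 and 6.14 on the CD arrays, 6.19, 8.30, 5.90 and 5.68 on the PR arrays and 7.76, 5.53, 7.45 and 6.28 on the FA arrays. The order of the PR and FA brains was again the one seen for S100a9, with spans of 6.15-fold within PR and 4.71-fold within FA.

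For the brightest probe of each gene, PR 2 was the highest PR brain for 8 of 9 genes and PR 4 the lowest for 9 of 9. FA 1 was the highest FA brain for 8 of 9 and FA 2 the lowest for 9 of 9. Within CD no brain held such a place, the most frequent being CD 4, which was highest for 6 of 9. The SD over the 4 brains had a median across the 9 genes of 0.21 in CD, 1.35 in PR and 1.37 in FA, on the log2 scale. Over all 23753 probes well above background on 12 arrays, the medians were 0.10, 0.086 and 0.084, so that CD was the narrowest diet for the members and not for the probes at large.

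The pooled within-diet SD was 1.29 for S100a9, 1.25 for S100a8, 1.14 for Mpo and 0.92 for Chi3l3. Among the 23753 probes these ranked 14, 17, 22 and 36. Camp, at 0.53, ranked 291, Lcn2, at 0.39, ranked 625, and Elane, at 0.25, ranked 1757. Ltf (1.31) and Ngp (1.25), which were not well above background on every array, have no rank there. Several probes with wider spread, led by Esm1 (2.65), are no granulocyte genes, so the 9 genes are not the most variable on the array. Normexp background correction with quantile normalization, which compresses dim signals, lowered the SD of Mpo to 0.49, of Chi3l3 to 0.48, of Ltf to 0.57 and of Ngp to 0.30, and the ranks hold for the deposited normalization only.

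**Figure D2:**
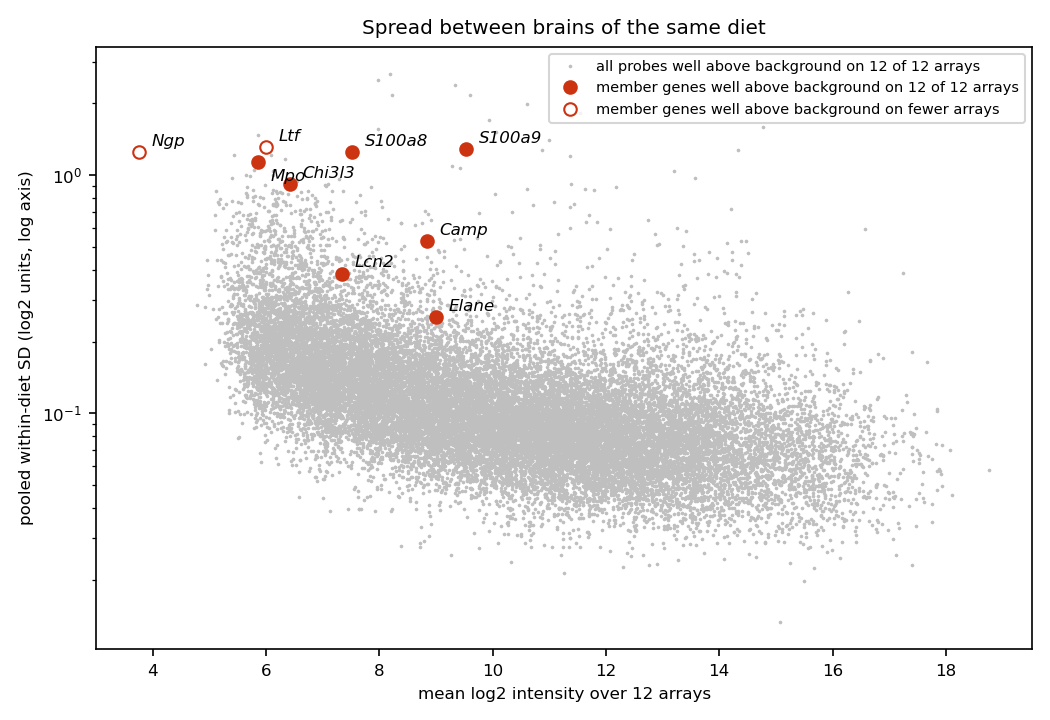
Pooled within-diet SD (y axis, log2 units on a log axis) against mean log2 intensity over 12 arrays (x axis). Grey points are all 23753 probes well above background on 12 arrays, filled circles the 7 member genes among them and open circles Ltf and Ngp. S100a8, S100a9, Mpo and Chi3l3 stand far above probes of like intensity, and Elane lies closest to the grey points.

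Deviations from the diet mean moved together. Over the 36 pairs of the 9 genes the median Pearson r was 0.94 (12 arrays each). The 28 pairs without Elane ranged from 0.79, Mpo with Lcn2, to 0.99, with a median of 0.96, and the 8 pairs with Elane had a median of 0.39. Spearman's rho had medians of 0.94 and 0.36 in the same 2 sets. Without PR 2 and FA 1, the 2 arrays farthest from the middle, the median r over the 36 pairs was 0.88.

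Per unit of S100a9 deviation on the log2 scale, Ltf moved by 1.00, S100a8 by 0.96, Ngp by 0.93 and Mpo by 0.83. Chi3l3 moved by 0.70, Camp by 0.40 and Lcn2 by 0.26, and Elane by 0.079. Probes differ in how they respond to RNA, so these slopes give no order of RNA levels between genes.

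**Figure D3:**
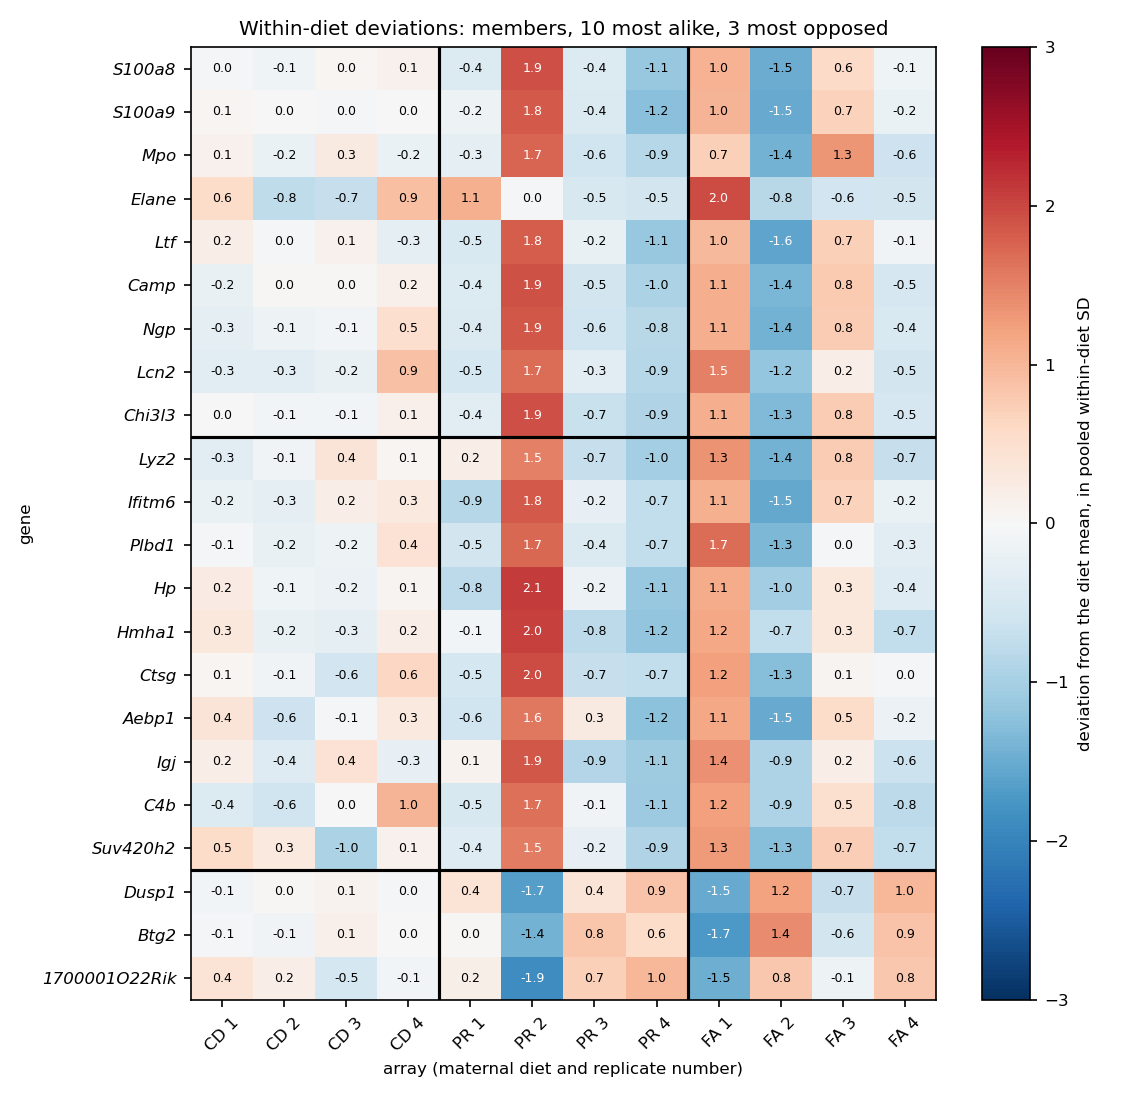
Deviation from the diet mean divided by the pooled within-diet SD (colour and printed value) for each gene (rows) on each array (columns). The upper block holds the 9 member genes, the middle block the 10 genes most like them and the lower block the 3 most opposed. PR 2 and FA 1 are red and PR 4 and FA 2 blue for nearly all genes of the upper 2 blocks, and the CD columns are pale for the members.

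The genes most like the members were found by correlating the deviations of each of 24913 named probes, well above background on at least 6 arrays, with the mean standardized deviation of the 9 genes. Several of the 10 highest are themselves known from myeloid cells. Lyz2, lysozyme of neutrophils and macrophages, led (r = 0.96), followed by Ifitm6, an interferon-induced transmembrane protein gene (0.96), Plbd1, a phospholipase-like protein of granulocytes (0.95), and Hp, the hemoglobin-binding haptoglobin that is also stored in granules (0.95). Hmha1 (0.94), Ctsg (0.94), Aebp1 (0.93), Igj (0.92), C4b (0.91) and Suv420h2 (0.91) completed them. Ctsg encodes cathepsin G, a primary granule protease, Igj the joining chain of secreted antibodies (current symbol Jchain) and C4b a complement protein.

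Ctsg read 5.35, 5.26, 5.02 and 5.63 on the CD arrays, 5.39, 6.68, 5.31 and 5.28 on the PR arrays and 5.97, 4.67, 5.37 and 5.32 on the FA arrays. Hp read 6.85, 6.65, 6.63 and 6.76, then 6.24, 7.71, 6.55 and 6.06, then 7.41, 6.31, 7.01 and 6.66. Both put PR 2 and FA 1 on top and PR 4 and FA 2 at the bottom of their diets. Hmha1, Aebp1, C4b and Suv420h2 had pooled SDs of 0.08 to 0.14, so that their likeness rests on small differences. Without PR 2 and FA 1, r was 0.69 for Igj, 0.75 for C4b, 0.77 for Suv420h2, 0.78 for Ctsg and 0.79 for Hmha1.

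At the opposite end stood Dusp1 (r = -0.97), which encodes a phosphatase of MAP kinases, Btg2 (-0.94), an antiproliferative gene, and 1700001O22Rik (-0.92, and -0.68 without PR 2 and FA 1). Dusp1 and Btg2 are known as genes induced within minutes by stimulation of a cell. Dusp1 read 11.89, 11.93, 11.94 and 11.90 on the CD arrays, 11.49, 10.96, 11.49 and 11.62 on the PR arrays and 11.17, 11.88, 11.38 and 11.82 on the FA arrays. Btg2 read 10.49, 10.47, 10.54 and 10.51, then 9.92, 9.54, 10.13 and 10.06, then 9.85, 10.69, 10.16 and 10.54. PR 2 and FA 1 were the lowest brains of their diets for both genes, and the CD brains were as close to each other as they were for S100a9.

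Other granulocyte genes followed in part. Of 28 such genes with a probe (primary granule, secondary and tertiary granule, mature neutrophil), 14 were well above background on at least 6 arrays and 8 on none. Among the 14 the median r with the members was 0.22, against -0.01 over 27616 probes that met the same condition, and 2 of 14 exceeded 0.8, against 0.319% of those probes. The 2 were Ctsg and Hp. Next came Mmp9, gelatinase B of tertiary granules (0.59), Retnlg, a resistin-like protein of neutrophils (0.57), and Csf3r, the receptor for the growth factor G-CSF (0.57). The likeness of Csf3r and Mmp9 rests on small differences. Csf3r read 15.42 to 15.66 over all 12 arrays, with a pooled SD of 0.073 and Spearman's rho of 0.38. Mmp9 had a pooled SD of 0.15 and a rho of 0.48. Retnlg read 6.35 on PR 2 and 3.40 on PR 4, and 5.38 on FA 1 and 3.14 on FA 2, but also 2.18 to 6.98 over the CD arrays. Prtn3, proteinase 3 of primary granules, which neighbours Elane in the genome, read 5.29 to 6.16 over all 12 arrays, with r = 0.13. Pglyrp1, a peptidoglycan-binding granule protein, had r = -0.31 and Cd177, a neutrophil surface protein, -0.01. Ly6g, the antigen by which mouse neutrophils are usually sorted, had r = -0.01. It read 4.95 on PR 2 and 5.81 on PR 4, the reverse of S100a9 in those 2 brains, and 5.92 on FA 1 and 5.43 on FA 2, the same direction as S100a9.

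Against CD, limma called 2 of these 28 genes higher and 2 lower in PR, and the same numbers in FA, beside the 30.0% and 34.4% of all probes called in those comparisons. In both, Pglyrp1 and Mmp9 were the higher ones and Olfm4 and BC100530 the lower ones. Of these 4, Olfm4 was not well above background on any array and BC100530 on 4 of 12. None of the 28 was called in FA vs PR.

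Among genes too dim for that count, 1100001G20Rik (Wfdc21), a secreted protein of neutrophils, was well above background on 3 arrays, with 4.95 on PR 2, 4.67 on FA 1 and 4.28 on FA 3 (r = 0.97). Cebpe, the C/EBP factor required for secondary granules, read 4.84 on PR 2 and 2.73 to 2.95 on the other PR arrays, and was well above background on 2 of 12 arrays (r = 0.90). Ms4a3, a marker of granulocyte and monocyte precursors, reached 3.76 on PR 2 and 3.64 on FA 1 (r = 0.90), and Mmp8, collagenase of secondary granules, 3.16 and 3.08 (r = 0.84), both well above background on none. The other granule and mature neutrophil genes too dim for that count had lower r. It was 0.74 for Itgb2l, 0.47 for Clec4d, 0.38 for Stfa2l1, 0.31 for Fcnb, and 0.30 for Cxcr2 and BC100530. Bpi had 0.05, Padi4 0.04, Olfm4 and Clec4e 0.02, and Stfa1 -0.25. Cebpa, the factor that acts earliest in the granulocyte series and that brain cells also express, had r = -0.82, on a pooled SD of 0.11. Spi1, the gene of PU.1, was well above background on 8 of 12 arrays and had r = 0.26. Gfi1, another granulocyte transcription factor, had r = 0.36 and was well above background on none.

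**Figure D4:**
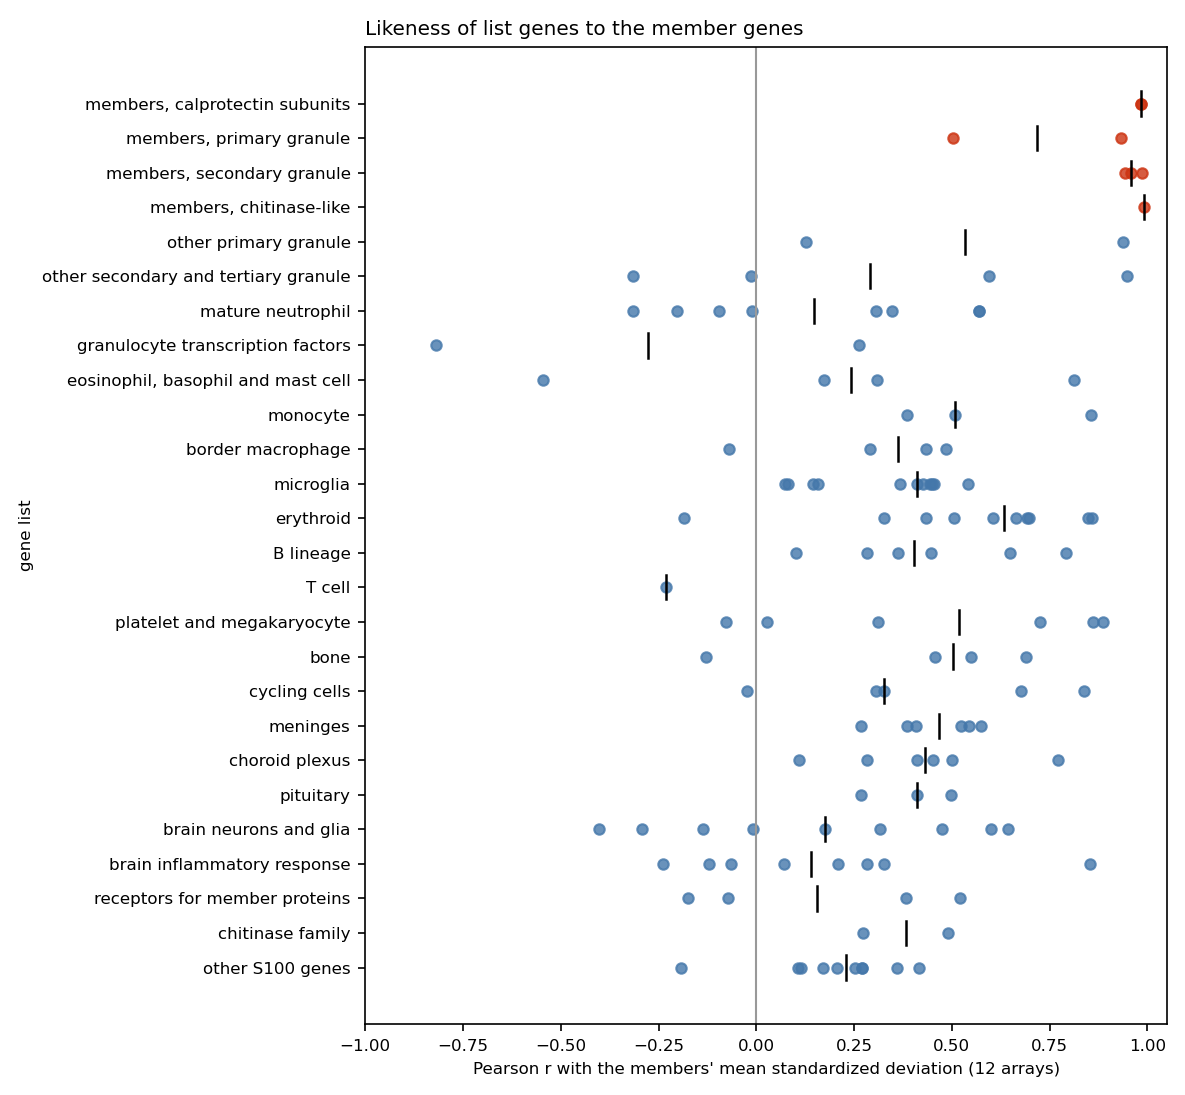
Pearson r (x axis, 12 arrays) between the deviations of a gene and the mean standardized deviation of the 9 members, for genes of each list (y axis) well above background on at least 6 arrays. Points are genes and black ticks list medians, and the members, in red, are correlated with a mean that contains them. Ctsg, Hp, Ear2, Plac8, Rhd, Ahsp, Ppbp, Treml1, Mki67 and Ccl2 lie beyond 0.8, and the lists they belong to are spread from low to high values.

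Markers of other cell types of blood and marrow moved with the members in part. Of 14 erythroid genes, 10 were well above background on at least 6 arrays, with a median r of 0.63 and a lowest of -0.18. Rhd (0.86) and Ahsp (0.85), genes of red cell precursors, were the most alike, and Ahsp read 7.36 on PR 2, 3.61 to 4.75 on the other PR arrays, 6.24 on FA 1 and 5.13 on FA 2. Hbb-b1, the globin of circulating red cells, read 15.35, 15.43, 14.71 and 15.01 on the PR arrays (r = 0.69). On the FA arrays it read 15.22, 14.70, 14.97 and 15.14. These are far smaller differences than those of S100a9, and the lowest PR brain was PR 3, not PR 4. The summed linear intensity of the erythroid genes ranged from 365631 to 398388 on the CD arrays, 281739 to 395437 on PR and 273826 to 364589 on FA. The lowest PR sum was that of PR 3 and the highest FA sum that of FA 4, unlike the order of the members. Rhag and Epb4.2, which are among the defining genes of the lineage, were not well above background on any array.

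Of 8 platelet genes, 6 could be compared, with a median r of 0.52. Ppbp (0.89), Treml1 (0.86) and Pf4 (0.73) were the most alike, while Gp9 (0.31), Gp5 (0.03) and Itga2b (-0.08) were not close. The summed intensity of the list was 900.4 to 935 on CD, 902 to 1228 on PR and 935 to 1178 on FA, and Gp1ba was not well above background on any array. Of 5 bone genes, 4 could be compared, with a median r of 0.50. Bglap2, an osteocalcin gene (0.69), read 9.45 on FA 1 and 6.11 to 7.26 on the other 11 arrays, and the summed intensity was 370 to 384 on CD, 343 to 456 on PR and 384 to 1093 on FA. Of 4 monocyte genes with a probe, 3 could be compared, with a median r of 0.51, from 0.38 for Ms4a6c to 0.85 for Plac8. Their sums were 430 to 485, 475 to 684 and 494 to 579. Of 8 genes of dividing cells, 5 could be compared, with a median r of 0.33, from -0.02 for Ccnb1 to 0.84 for Mki67. Mki67 read 7.68 on PR 2 and 7.41 on FA 1, with 6.77 to 7.17 on the other PR and FA arrays. The sums of the 8 genes were 628 to 720, 672 to 841 and 713 to 1314, the highest on FA 3, where Top2a read 8.98 against 3.07 to 4.44 on the other 11 arrays. Among 9 B lineage genes with a probe, 6 could be compared (median r 0.40, from 0.10 for Dntt to 0.79 for Vpreb3). Among 10 eosinophil, basophil and mast cell genes, 4 could be compared (median 0.24, from -0.55 for Tpsb2 to 0.81 for Ear2). Cd3e was the only T cell gene that could be compared (r = -0.23). The part of all these cell types in the spread of the 9 genes was not tested.

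Genes of cells that reside in brain or its borders had lower medians than the erythroid list, which was 0.63. Lists of blood and marrow did not all lie above them. The median was 0.40 for B lineage, 0.33 for dividing cell, and 0.24 for eosinophil, basophil and mast cell genes. Median r was 0.41 over 11 microglial genes, 0.36 over 4 border macrophage genes, 0.47 over 6 meningeal genes and 0.18 over 9 neuron and glia genes. It was 0.43 over 6 choroid plexus genes, with F5 at 0.77, and 0.41 over the 3 pituitary genes that could be compared. Of these medians, only that of neuron and glia genes lay below the 0.22 of the other granulocyte genes. Of 15 genes of the inflammatory response of brain, 8 could be compared, with a median r of 0.14. Ccl2, a monocyte chemokine, was the exception at 0.85, over values of 4.81 to 5.49. Cxcl1, Cxcl2, Tnf, Icam1 and Steap4 were not well above background on any array. None of 10 other S100 genes (highest r 0.42) and neither Chi3l1 (0.27) nor Chia (0.49) of the chitinase family tracked the members closely, and Chi3l4, the nearest relative of Chi3l3, was well above background on 1 array. The number of spots well above background on an array deviated with r = -0.25 against the members.

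Between the diets, the study asked whether the maternal diet altered gene expression in the brain of the progeny. No gene of the 9 was called in any of the 3 comparisons by limma at an adjusted p under 0.05 with all arrays and no replicate block. In PR vs CD this was 0 of 9 member genes against 30.0% of all probes. In FA vs CD it was 0 of 9 against 34.4% and in FA vs PR 0 of 9 against 0.614%. At an unadjusted p under 0.05 the count was 0 of 9 as well in each comparison, against 41.1%, 44.4% and 14.1% of all probes. By its brightest probe, no gene had values of 2 diets that failed to overlap (33.2%, 36.9% and 11.1% of all probes). The dimmer Mpo probe, well above background on no CD or FA array, lay lower on all FA than on all CD arrays. A Tukey comparison also called 0 of 9.

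S100a9 averaged 8.95 ± 0.044 in CD, 9.56 ± 1.69 in PR and 10.10 ± 1.45 in FA (log2, SD, n = 4 each). The log2 fold change was 0.62 for PR vs CD (95% CI -1.26 to 2.50, limma adjusted p = 0.617) and 1.15 for FA vs CD (-0.73 to 3.03, adjusted p = 0.326). The values of 2 diets overlapped for S100a9 in each comparison. Without PR 2 the PR vs CD value was -0.18, and those of S100a8, Ltf, Camp and Chi3l3 changed sign as well (-0.32, -0.20, -0.065 and -0.088), so that the direction of all 5 rested on 1 brain. In FA vs CD, leaving out any 1 array kept S100a9 between 0.71 and 1.80.

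The other log2 fold changes of FA vs CD ran from -0.36 for Elane to 1.11 for Ltf, where Ngp, without a fold change, is left aside. Only 1 of the 4 CD brains and 3 of the 4 FA brains gave a Ltf signal well above background, so its value rests on dim signals. Lcn2 came closest in PR vs CD at 0.47 (95% CI -0.10 to 1.03, limma adjusted p = 0.198). Elane came closest in FA vs CD at -0.36 (-0.74 to 0.01, limma adjusted p = 0.125), with means of 9.19 ± 0.21 in CD and 8.83 ± 0.33 in FA (SD, n = 4 each). Without FA 1 the Elane difference was -0.53 and passed the threshold (limma adjusted p = 0.0133), as it did at -0.36 with the replicate number as a block (limma adjusted p = 0.0484), while 34.4% of all probes passed in that comparison with all arrays. The standard errors of the 9 genes were 0.17 to 0.86, against a median of 0.073 over the probes well above background on all arrays, and only 4 brains per diet bear on each mean. The median log2 fold change of the 9 genes, the fitted value of Ngp included, was 0.49 in PR vs CD, 0.74 in FA vs CD and 0.26 in FA vs PR, beside -0.02, -0.01 and 0.02 over all probes. The PR vs CD median was the value of S100a8, which changed sign without PR 2. As the members move together, these medians are no separate readings of 9 genes.

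**Figure D5:**
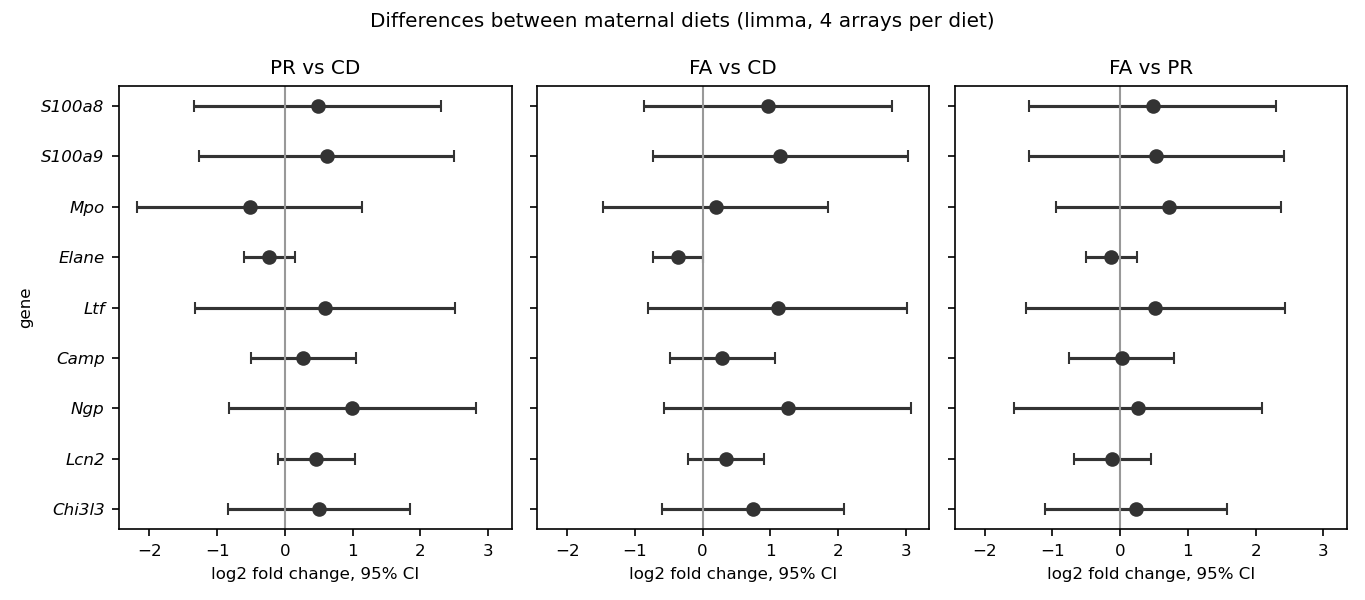
Log2 fold change (x axis) of the 9 genes (y axis) between maternal diets, with 95% confidence intervals from limma (4 arrays per diet). Every interval includes 0, the one of Elane in FA vs CD only just, and the intervals of S100a8, S100a9, Ltf, Ngp and Mpo span more than 3 log2 units. Ngp was not well above background on the CD arrays.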

How the data were processed

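Arrays were Agilent 4x44K one-colour designs of Cy3-labelled cRNA. Per the file headers, scanner intensities came from Feature Extraction 11.0.1.1 with mm9 probe positions. The authors deposited qspline-normalized linear intensities, of which log2 was taken (column medians 7.14 to 7.15). These matched the scanner values in rank (lowest Pearson r 0.997 on the log2 scale). A probe counted as well above background by the scanner's flag. No outlier mark fell on the 11 member probes.

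A gene with several probes was represented by the one with the highest mean. Genes and lists were chosen with earlier results of these data known. Companions were the 10 highest and 3 lowest named probes by r, and 2 probes named only by an accession were passed over. Three-diet limma 3.58.1 fits (R 4.3.3, eBayes) ran on all 39429 probes with Benjamini-Hochberg adjustment, after a test on simulated data. Alternatives varied the scaling, filter, block, test and arrays. P-values measure the spread between 4 brains a diet. Replicate numbers followed array positions, and same-numbered arrays did not deviate together (r -0.06 to 0.20). The 11 methylation samples were not analysed here.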

Additional observations from a re-analysis of the deposited data

Results flagged for a closer look

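The scan covered 171 groups of 4 brains, from 57 of the probes named here. In 18 groups a brain's gap to its nearest neighbour took more of the range than Dixon's limit for 4 values. Other probes named above were not scanned, so the list is incomplete. Stfa1 in CD, for example, read 2.40, 2.39, 6.74 and 2.44. Chance gives about 5% of groups only for genes chosen without regard to their values. The members were chosen by their spread between brains and the companions by their likeness to them, so the number of such groups is a description and no test. PR 2 was that brain for Ngp (0.854 of the range), Plbd1 (0.879), Ctsg (0.921), Cebpe (0.895), Ccl2 (0.865), Csf3r (0.847) and Mmp8 (0.931), high each time. The PR values of Csf3r lay between 15.42 and 15.66 only. FA 2 was that brain for Cebpe (0.972) and Retnlg (0.953), low both times. FA 1 was high for Elane (0.897), Mmp8 (0.952) and Ms4a6c (0.870). CD 4 was high for Lcn2 (0.916), for the dimmer Camp probe (0.903, in a group that spans 1.02-fold), for Ms4a3 (0.923) and for Olfm4 (0.842). FA 3 was high (0.861) and CD 2 low (0.903) for Top2a. Mmp8, Ms4a3 and Olfm4 were not well above background on any array. Probes of 1 array share its RNA, so these are not independent of each other.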

How the results depend on the processing

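The count of members called stayed at 0 in 67 of 69 counts, 1 for each alternative and comparison. The exceptions were both Elane in FA vs CD, for which 1 member was called with the replicate number as a block (adjusted p = 0.0484, limma) and 1 without FA 1 (range 0 to 1 over arrays left out). The block, used although same-numbered arrays did not deviate together (5 of 12 arrays correlated best with their own number), changed no other member call. Of 591 alternative fold changes of members, 568 kept their direction and their side of the threshold, 21 reversed and 2, those of Elane, passed.

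When 1 array was left out, PR vs CD ranged from -0.32 to 0.96 for S100a8, -0.18 to 1.15 for S100a9, -0.20 to 1.09 for Ltf, -0.065 to 0.44 for Camp and -0.088 to 0.79 for Chi3l3, each lowest without PR 2. FA vs CD ranged from -0.30 to 0.73 for Mpo, which was -0.047 with both Mpo probes averaged. FA vs PR ranged from -0.0021 to 1.33 for S100a9, -0.17 to 0.36 for Camp, -0.19 to 1.04 for Ngp, -0.31 to 0.10 for Lcn2 and -0.10 to 0.83 for Chi3l3.

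Over all probes, at least 2-fold with an adjusted p under 0.0001 left 34 in PR vs CD, 77 in FA vs CD and 0 in FA vs PR. Otherwise the first pair of counts stayed within 1.5 times. The 242 of FA vs PR became 136 with 75th percentile scaling, 436 with a trended robust fit, 101 with only the 2 diets fitted, 11 with the block, 554 with a filter that kept probes detected on every array of at least 1 diet (Ngp dropped out), 8 with the Tukey comparison, and 34 to 259 with 1 array left out. The cause was not tested.

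The median pairwise r was 0.92 to 0.95 under the other scalings, the averaged probes and the block, 0.89 to 0.96 with 1 array left out and 0.88 without PR 2 and FA 1, an alternative chosen after seeing the data. Normexp with an offset of 50, which compresses dim signals by construction, lowered the SD of Ngp to 0.30, Mpo to 0.49, Chi3l3 to 0.48, Ltf to 0.57 and Lcn2 to 0.24. Dimness limits Ngp and Ltf most, which were well above background on 3 and 8 of 12 arrays.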
